A study of Rattus norvegicus with 3 samples.

Results

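Adrenoceptors are the cell surface receptors through which adrenaline and noradrenaline act, and the 8 rat genes described here encode the alpha-1 subtypes (Adra1a, Adra1b, Adra1d), the alpha-2 subtypes (Adra2a, Adra2b, Adra2c) and the beta subtypes 1 and 3 (Adrb1, Adrb3). Every probe set that the platform annotation assigns to a member of this list and to no other gene was taken, which gave 11 of the 31042 gene probe sets on the array. Adra2b had 3 of them, Adra2a had 2 and each of the other genes had 1. The arrays measured total RNA from rats held in the cold for 7 days (1 array) or for 1 day (2 arrays, a and b). Its tissue label names the adrenal medulla, the inner part of the adrenal gland, after the words Multiple Organs, which were read as a project name and not as further tissues, an assumption. Strain, age and sex are not given in the labels used here, and they do not state whether arrays a and b stem from different animals, so p-values measure only the spread between these arrays, which may be technical. All 3 arrays come from rats in the cold, and rats at normal temperature were not analysed here.

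The subtypes differ in the G protein they engage. Alpha-1 receptors act through Gq and phospholipase C to raise calcium, alpha-2 receptors act through Gi to lower cyclic AMP, and beta receptors act through Gs to raise it. The chromaffin cells of the adrenal medulla make the ligands of these receptors, and alpha-2 receptors on catecholamine-releasing cells serve as a brake on further release.

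The RNA carried the genes of its labelled tissue. Of 10 measured chromaffin cell markers, 9 lay above the median of the gene probe sets on all 3 arrays, against 51.7% of all genes. So did 7 of 7 adrenal cortex markers, so RNA of the gland's outer part was present too. The median percentile of the chromaffin markers was 97.7 to 98.4 across the arrays, and that of the cortex markers was 99.8 to 99.9. The chromaffin exception was the vesicular transporter gene Slc18a1, at percentile 45.2 of 1-day array a. In such bulk RNA, fewer cells of a type and less RNA per cell cannot be told apart. Array a of the 1-day pair stood apart from the others. The Spearman correlation across gene probe sets was 0.939 between the 7-day array and array b, 0.684 between the 7-day array and array a and 0.664 within the 1-day pair. Beta-actin read from its 3′ end over its 5′ end, a ratio that grows with RNA degradation, gave 8.87 on the 7-day array, 231 on array a and 6.11 on array b. In a limma fit with array a set against the other 2, 15482 gene probe sets had an adjusted p under 0.05, against 0 with array b or the 7-day array in that place. Each comparison of a named gene with 1 day is therefore given with each 1-day array by itself as well.

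Most adrenoceptor probe sets were dim. Levels are given as log2(intensity + 16), and the median of all gene probe sets on that scale was 9.43 on the 7-day array, 10.64 on 1-day array a and 9.25 on 1-day array b. Only Adra2a had a probe set above the median on all 3 arrays, that is 1 of 8 genes, while 52.0% of all 14217 genes with a symbol of their own had one. On at least 1 array a probe set was above the median for 3 of 8 genes, against 76.1% of all. Adra1b and Adrb3 lay above it on 1-day array a and below it on the other arrays, as 11.7% of all gene probe sets did. Adra1a, Adra1d, Adra2b, Adra2c and Adrb1 were below the median on every array. By definition 50.0% of all gene probe sets lie above the median of an array, and of the 11 adrenoceptor probe sets 1 did so on the 7-day array, 3 on 1-day array a and 1 on 1-day array b. Counted by probe set, 8 of 11 were above the median on no array, against 35.3% of all, and 1 of 11 was above it on all 3, against 35.5% of all. The median percentile of the 11 probe sets was 15.7 on the 7-day array, 31.0 on array a and 25.6 on array b. A probe set's brightness also depends on how well its probes bind, so a place below the median is not a statement that the receptor was absent.

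**Figure D1:**
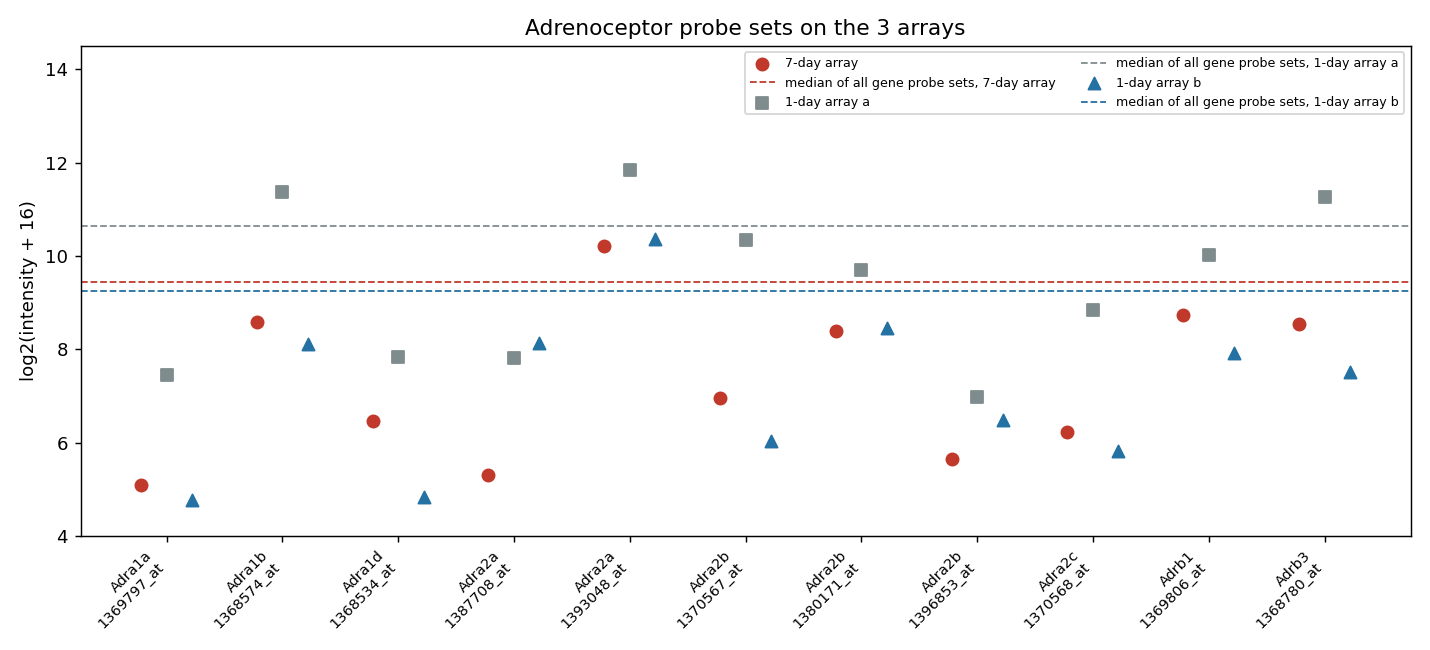
Level of each of the 11 adrenoceptor probe sets, as log2(intensity + 16), on the 7-day array (circles), 1-day array a (squares) and 1-day array b (triangles), with dashed lines for the median of all gene probe sets of each array. Adra2a on 1393048_at is above its array's line in all 3 cases, and Adra1b and Adrb3 are above theirs on array a alone.

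Adra2a, the main alpha-2 brake on sympathetic nerves, was read by a pair of probe sets that disagreed. Probe set 1393048_at had an intensity of 1173 on the 7-day array, against 3669 and 1300 on 1-day arrays a and b. On the log2 scale these were 10.22, 11.85 and 10.36, at percentiles 61.0, 80.5 and 62.9 of their arrays. The 7-day array and array b were close to each other, and array a was the high one. The 1-day mean was 11.11 ± 1.05 (SD, n = 2), and the 7-day value lay below it by a log2 difference of -0.89 ± 1.24 (SE from limma, adjusted p = 1.00).

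The other Adra2a probe set, 1387708_at, gave 23.5 on the 7-day array, against 207.9 and 266 on 1-day arrays a and b. Its log2 levels of 5.30, 7.81 and 8.14 put it at percentiles 2.88, 11.5 and 34.7. Here the 1-day arrays were near each other (7.97 ± 0.24 on the log2 scale, SD, n = 2), and the 7-day array was the low one. The log2 difference was -2.50 from array a and -2.84 from array b, and -2.67 ± 3.13 from their mean (SE from limma, adjusted p = 1.00). This was the 1 adrenoceptor probe set at least 2-fold below both 1-day arrays, a rule that 5.74% of all gene probe sets met. With a pseudocount of 1 in place of 16, 2 of 11 met it, Adra2b on 1396853_at being the other, and of the probe sets that pass a filter at the median level 0 did. None of the 11 was at least 2-fold above both, which 1.25% of all were. On 1393048_at and 1387708_at the 7-day array differed from array b by -0.15 and -2.84, so the size of the difference was not shared between them. The dimmer one, on the 7-day array, was near the bottom of the scale, where the 5th percentile of all gene probe sets was 5.58.

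Adra2b, an alpha-2 subtype that constricts blood vessels, was below the median on each of its 3 probe sets. Probe set 1380171_at had log2 levels of 8.40 on the 7-day array, against 9.70 and 8.47 on 1-day arrays a and b, and stayed between percentiles 31.0 and 39.6. Probe set 1370567_at had 6.95, against 10.33 and 6.04, and 1396853_at had 5.65, against 6.98 and 6.48. On array a, 1370567_at came within 0.31 of the array median, the nearest of all values below it, whereas its percentile was 15.7 on the 7-day array and 13.1 on array b. The 3 probe sets of this gene did not order the arrays alike, since the 7-day array lay between the 1-day arrays on 1370567_at and below both on the others.

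Adra2c, which in mouse chromaffin cells restrains adrenaline release, had log2 levels of 6.23 on the 7-day array, against 8.85 and 5.83 on 1-day arrays a and b. It was at percentile 10.5 on the 7-day array and at 22.1 and 11.4 on the 1-day arrays. The 7-day value was thus close to array b and between the 1-day arrays.

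Of the alpha-1 subtypes, Adra1b was the highest in rank. This receptor, which drives glycogen breakdown in rat liver, had an intensity of 371 on the 7-day array, against 2638 and 261 on 1-day arrays a and b. Its percentiles were 35.4, 70.6 and 34.3, so array a alone put it above the median. Adra1a, which contracts smooth muscle of vessels and the urinary tract, had log2 levels of 5.08 on the 7-day array and 7.46 and 4.77 on arrays a and b, and its highest percentile was 8.11, on array a. Adra1d, which contracts large arteries in the rat, had 6.47, against 7.83 and 4.83. Its percentile was 12.5 on the 7-day array, 11.7 on array a and 2.31 on array b. Smooth muscle markers, measured beside these receptors, were above the median on all 3 arrays for 5 of 7 genes, and their summed intensity was 36811 on the 7-day array, against 22287 to 44096 on the 1-day arrays. The part of smooth muscle RNA in the alpha-1 values was not tested.

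The beta subtypes read lower on array b than on the 7-day array, as 7 of the 11 adrenoceptor probe sets did, against 57.0% of all. Adrb1, which raises the rate and force of the heartbeat, had log2 levels of 8.75 on the 7-day array, against 10.02 and 7.92 on 1-day arrays a and b, and percentiles of 38.4, 35.9 and 31.4. Ranked within its array it was thus among the steadiest of the adrenoceptors, and it was below the median throughout. Adrb3, which starts fat breakdown and heat production in fat cells, had an intensity of 359 on the 7-day array, against 2428 and 166.0 on arrays a and b. Its percentiles were 34.6, 67.6 and 25.6. The log2 difference of the 7-day array was -2.70 from array a and 1.04 from array b, so the direction depended on the 1-day array used.

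Fat around the gland is a tissue that carries Adrb3, and 10 fat markers were read beside it. Of these, 3 were above the median on all 3 arrays and 6 on none. Their summed intensity was 25821 on the 7-day array, against 17756 and 24165 on 1-day arrays a and b, with Cidea the brightest on each, at 18241, 6291 and 15428. Ucp1, which defines heat-producing brown fat, had 35.1 on the 7-day array, against 156 and 31.1 on arrays a and b, within percentile 8.99 on every array. Adipoq, a fat cell hormone, had 409, against 1450 and 274, and like Adrb3 it was highest on array a and lowest on array b. That order was shared by 4 of the 10 fat markers and by 6 of the 8 adrenoceptor genes, against 32.2% of all genes. Plin1, which coats fat droplets, was instead lowest at 7 days, with 41.6, against 1510 and 286. The part of fat cell RNA in the Adrb3 values was not tested.

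**Figure D2:**
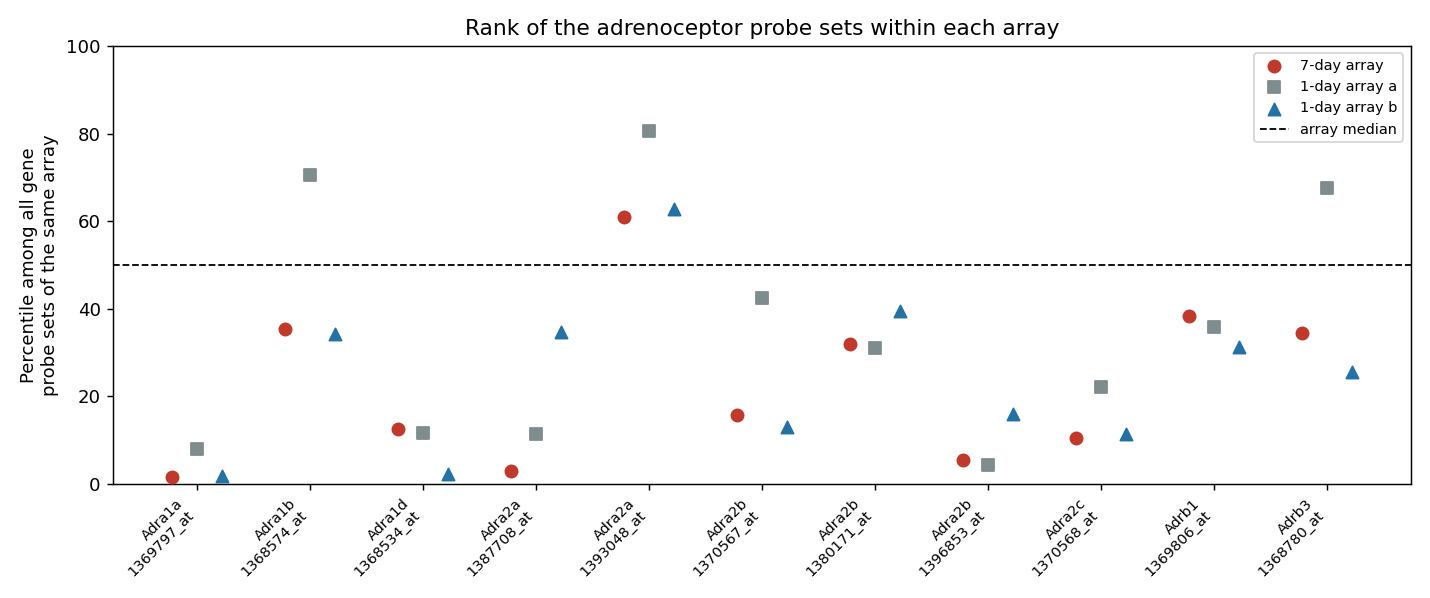
Percentile of each adrenoceptor probe set among the 31042 gene probe sets of the same array, with the array median as a dashed line, for the 7-day array (circles), 1-day array a (squares) and 1-day array b (triangles). Adrb1 and Adra2b on 1380171_at keep nearly the same rank on the 3 arrays, while Adra1b and Adrb3 reach percentiles 70.6 and 67.6 on array a.

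Setting 7 days against 1 day of cold asked whether receptor RNA differed between a longer and a shorter stay. No adrenoceptor probe set passed limma, and neither did any other: 0 of 31042 gene probe sets (0%) had an adjusted p under 0.05, while 62 had an unadjusted p under 0.05. With no intensity trend and with robust = TRUE the unadjusted counts were 35 and 46, and the adjusted counts were 0 again. The log2 differences of the 11 probe sets from the 1-day mean ran from -2.67 to 0.14 with a median of -1.03, and the median over all gene probe sets was -0.20. Their SEs ran from 1.24 to 3.24. The fit had 1 residual degree of freedom and took its spread from the trend over all probe sets, so each SE is the spread at that intensity and not that of the gene's own pair. With SEs of this size, the lack of a call does not show that receptor RNA was alike after the longer and the shorter stay.

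The 1-day pair differed by more than the 7-day array did from array b for most of the receptors. The log2 difference of array a from array b ran from -0.33 to 4.29 with a median of 2.69. Array a was the higher for 10 of 11 probe sets, against 67.3% of all, and at least 2-fold higher for 9 of 11, against 47.1% of all. The 7-day array lay between the 1-day arrays for 7 of 11 probe sets, against 53.7% of all. It lay below both for 4 of 11, against 27.6% of all, namely both probe sets of Adra2a and 2 of the 3 of Adra2b. It lay above both for 0 of 11, against 18.8% of all.

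Set against 1-day array a, the 7-day array was at least 2-fold lower for 11 of 11 probe sets, by -1.27 to -3.39 on the log2 scale, as it was for 44.0% of all gene probe sets. The 7-day array also read lower than array a in the bins of dim probe sets given below. Those bins were set by the 7-day array and array b, so a lower 7-day value there is partly built in. Set against 1-day array b, it was higher for 7 of 11, against 57.0% of all. The probe sets at least 2-fold higher than on array b were those of Adra1d (1.64) and Adrb3 (1.04), that is 2 of 11 against 14.9% of all, and 1 of 11 was at least 2-fold lower, against 6.64% of all. These comparisons of single arrays have no replicate check.

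Dim probe sets as a class also read higher on the 7-day array than on array b. When all gene probe sets were split into 10 equal bins by their mean on those arrays, 10 of the 11 adrenoceptor probe sets fell in the 4 dimmest bins. The median log2 difference of the 7-day array from array b in these bins was 0.40 to 0.66, with an SD across probe sets of 0.89 to 1.93. In the bin that held Adra2a on 1393048_at it was 0.00 with an SD of 0.38. From array a the bin medians were -2.68 to -1.61 in the 4 dimmest bins, -0.36 in the bin of that Adra2a probe set and 0.78 in the brightest. Array a had no part in setting the bins, so this gradient is partly built in and is not an independent property of dim probe sets. In the difference from array b, 8 of 11 adrenoceptor probe sets lay within 1 SD of the median of their own bin, against 70.1% of all gene probe sets. Adra1d was 1.14 SD above it, Adra2b on 1396853_at was 1.14 SD below it and Adra2a on 1387708_at was 1.81 SD below it. Adrb3, at 0.67 SD, was among those inside. Probe sets are not replicates, so these positions describe the 2 arrays.

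**Figure D3:**
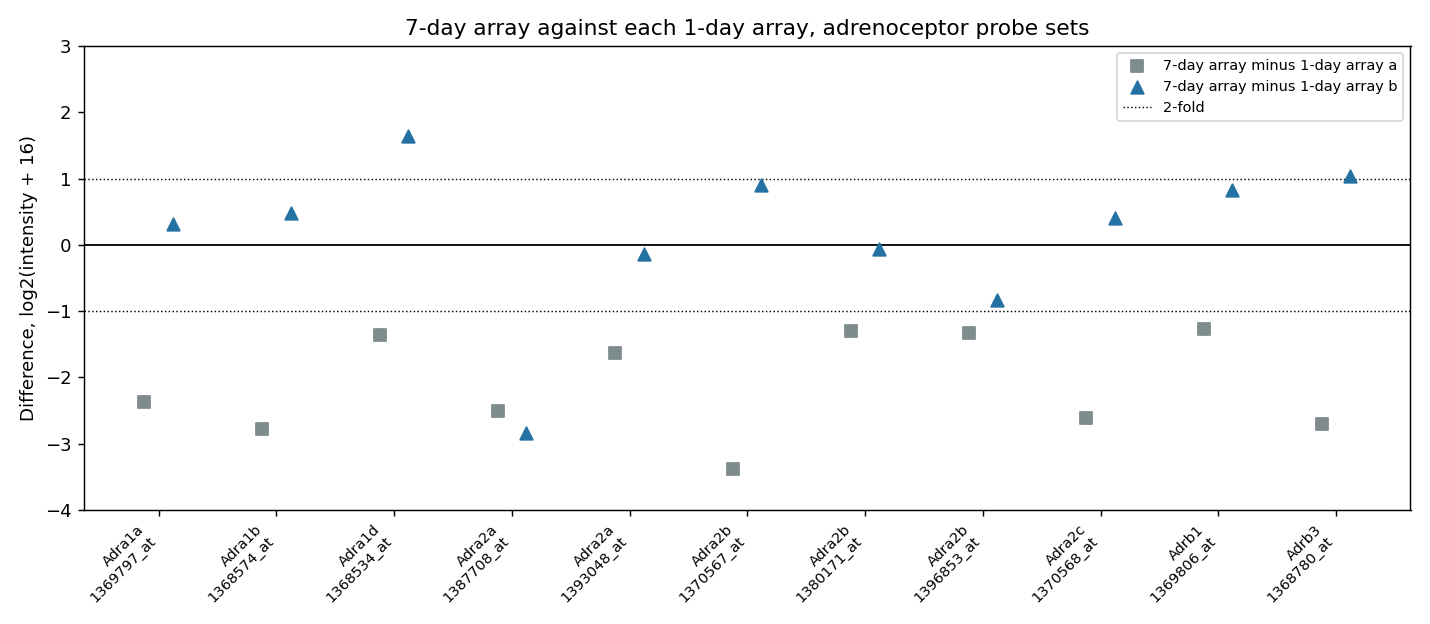
Difference of the 7-day array from 1-day array a (squares) and from 1-day array b (triangles) for each adrenoceptor probe set, in log2(intensity + 16), with dotted lines at 2-fold. All 11 squares are below -1, while the triangles spread from -2.84 to 1.64, and Adra2a on 1387708_at alone is beyond the 2-fold line on the same side in both comparisons.

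Genes that act before and after the receptors were read as 6 lists, each gene by its probe set with the highest mean. Between 5 of 11 and 9 of 11 genes of a list were above the median on all 3 arrays, against 1 of 8 adrenoceptor genes. Over all genes 51.7% were above the median on all 3 arrays, and 21.7% read higher and 26.5% lower at 7 days than on both 1-day arrays. Of 10 genes for making, storing and clearing the ligands, 6 were above the median on all 3 arrays. Th, which catalyses the slowest step in making catecholamines, was at percentile 99.96, 99.49 and 99.98 of the 7-day array and 1-day arrays a and b. Slc6a2, which takes noradrenaline back into cells, was below the median on every array, with an intensity of 412 on the 7-day array, against 1558 and 578. It had the lowest difference of this list from the 1-day mean, at -1.18 ± 2.12, and the vesicular transporter Slc18a1 the highest, at 1.44 ± 0.85 (log2, SE from limma, adjusted p = 1.00 for both). For Slc18a1 the 7-day array differed by 3.28 from array a and by -0.40 from array b on that scale.

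Among the G protein subunits, 6 of 10 were above the median on all 3 arrays. Gnas, which encodes the Gs subunit that beta receptors engage, had an intensity of 215762 on the 7-day array, against 92477 and 179405 on 1-day arrays a and b. It read above both, with the highest difference of the list (0.74 ± 1.75). Gnai2, a Gi subunit that alpha-2 receptors engage, had 11023, against 25263 and 14681, and read below both, with the lowest difference (-0.80 ± 0.87). Gnaq, the Gq subunit of the alpha-1 arm, was below the median throughout, with 169.7, against 269 and 298.

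Adenylyl cyclases, which Gs activates and Gi inhibits, read below both 1-day arrays at 7 days for 3 of 7 genes and above both for 0 of 7. Adcy5 had 545, against 2098 and 1386, and was the 1 gene of this list at least 2-fold below both (log2 difference -1.62 ± 1.58). Adcy6 had the highest difference (0.19 ± 0.85), at 0.49 from array a and -0.11 from array b. Of 11 effectors of cyclic AMP, 9 were above the median on all 3 arrays, and 5 read above both 1-day arrays and 1 below both. Prkacb, a catalytic subunit of protein kinase A, had the highest difference (1.23 ± 0.92), with 41240 on the 7-day array, against 9794 and 31677. Prkar1b, a regulatory subunit of that kinase, had the lowest (-0.20 ± 0.84), at -0.10 from array a and -0.31 from array b.

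In the phospholipase C and protein kinase C arm, 9 of 11 genes were above the median on all 3 arrays. Prkcd, a protein kinase C, had the highest difference (0.35 ± 0.84), at 0.75 from array a and -0.04 from array b. Plcb2, a phospholipase C, had 85.1 on the 7-day array, against 394 and 376, and was at least 2-fold below both (-1.99 ± 3.20). Of 11 receptor kinases, arrestins and RGS proteins, which switch receptors or their G proteins off, 4 read above both 1-day arrays and 1 below both. Grk3, a kinase that marks active adrenoceptors for uptake, had 25.8 on the 7-day array, against 2062 and 226, the lowest difference of this list (-4.08 ± 3.17). Grk5, of the same family, had the highest (0.99 ± 2.91), at 2.12 from array a and -0.14 from array b. Rgs2, which turns off Gq, read above both, with 70506 on the 7-day array, against 31605 and 51093. No gene of these lists passed limma over all gene probe sets.

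**Figure D4:**
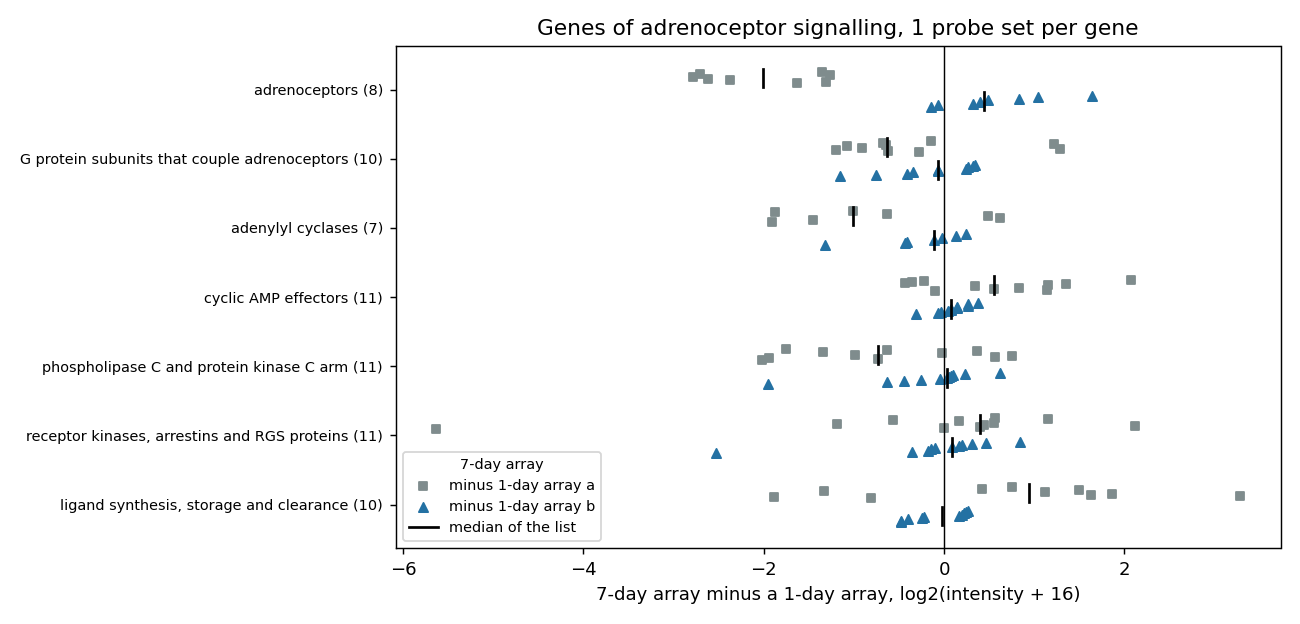
Difference of the 7-day array from 1-day array a (squares) and from 1-day array b (triangles), in log2(intensity + 16), for the adrenoceptors and for the genes of 6 lists around them, with 1 probe set per gene, the number of genes in brackets and black bars for list medians. The adrenoceptor medians are -2.0 against array a and 0.44 against array b, and for the ligand genes they are 0.94 and -0.03.

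The list medians depended on the 1-day array used, and not all in the direction of the receptors. Against array a the median log2 difference was -2.0 for the adrenoceptors, -0.63 for G protein subunits, -1.01 for adenylyl cyclases and -0.73 for the phospholipase C arm. It was 0.55 for cyclic AMP effectors, 0.40 for the kinase, arrestin and RGS list and 0.94 for the ligand genes. Against array b the adrenoceptor median was 0.44 and those of the other 6 lists ran from -0.11 to 0.09. Over all genes the medians were -0.31 against array a and 0.04 against array b. The lists differed in level too: on the 7-day array the median percentile was 33.2 for the adrenoceptors and 61.4 to 94.9 for the other 6 lists. Against array a the bin medians of all gene probe sets ran from -2.68 in the dimmest bin to 0.78 in the brightest. Array a was left out when the bins were set, so part of this gradient is built in. The part of level in the list medians was not tested.

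Liver markers, with 1 of 7 above the median on all 3 arrays, had medians of -1.39 against array a and 0.53 against array b. Endothelial markers, of which 3 of 5 were above the median on all 3 arrays, had 0.24 and 0.09. Adrenal cortex markers had 0.35 and 0.38, and chromaffin cell markers 0.03 and 0.21. The part of these cells in the receptor values was not tested.

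The probe sets whose pattern was most like that of Adra2a on 1393048_at, the adrenoceptor probe set with the highest mean, belonged to Lrrc75a, Pkn3 and Ttc4. Likeness was the largest absolute difference over the 3 arrays between log2 values taken relative to each probe set's own mean, and it was 0.0034, 0.0050 and 0.0095. It was computed over 8916 named probe sets above the median on all 3 arrays, of which 92 came within 0.1. With 3 arrays so many close matches carry little information on any one gene.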

How the data were processed

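Per the file headers the deposited table holds 1 value for each of 31099 probe sets on each of 3 arrays. The values are linear intensities that the authors had summarised and scaled. Their 2% trimmed mean was 2501 on every array, which is how scaling was recognised, and the software is not given in the sources used here. Groups and replicate letters came from the sample titles. The 57 control probe sets were left out, and all others were kept as scaled and turned into log2(intensity + 16). Scaling to a common mean hides differences in total signal, and the pseudocount shrinks differences of dim probe sets. No low-value filter was used, since a filter at the median mean level (9.60) keeps 1 of the 11 adrenoceptor probe sets. In the platform annotation 20826 probe sets had 1 symbol, 436 had more and 9780 had none. Among those with 1 symbol, 20764 were updated through the RefSeq gene table of assembly GRCr8. A percentile is the share of gene probe sets of the same array with a lower value.

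Limma (lmFit, then eBayes with trend = TRUE) gave two-sided p-values, adjusted by Benjamini-Hochberg over 31042 gene probe sets with a threshold of 0.05, on 3 arrays with 1 residual degree of freedom. The lone 7-day array is taken to have the spread of the 1-day arrays. Precision is limited by the number of arrays. The fit was tested on simulated data. That simulation gave all probe sets the same spread, unlike these arrays, so it does not show how the fit performs on them. Genes named outside the family were the highest and lowest of each of the 6 pathway lists by the difference from the 1-day mean, the genes of those lists at least 2-fold outside both 1-day arrays, defining markers of the cell types, and the 3 probe sets most like the brightest adrenoceptor. Rgs2, Gnaq, Th, Cidea, Adipoq and Plin1 were picked after their values were seen. The members and lists were chosen with earlier results of these data known. R 4.3.3 with limma 3.58.1 and Python 3.11.15 with matplotlib 3.10.9 were used. Alternatives were pseudocounts of 1 and 64, quantile normalization, median centring, filters, other limma settings, other medians, the mean of a gene's probe sets and leaving out each 1-day array, the last being added later for levels.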

Additional observations from a re-analysis of the deposited data

How the results depend on the processing

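The 1-day array used decided most directions. Without 1-day replicate b and without replicate a, the log2 difference ran from -2.38 to 0.32 for Adra1a, -2.78 to 0.48 for Adra1b, -1.36 to 1.64 for Adra1d, -3.39 to 0.91 for Adra2b on 1370567_at, -2.62 to 0.40 for Adra2c, -1.27 to 0.83 for Adrb1 and -2.70 to 1.04 for Adrb3. It kept its sign for Adra2a (-1.63 to -0.15 and -2.84 to -2.50) and for the other probe sets of Adra2b. These settings leave no residual degrees of freedom and no test. Adra1d on 1368534_at had a difference of -0.086 with a pseudocount of 64, and Adrb1 at 0.28 with quantile normalization and 0.29 with median centring. Adra2a stayed the 1 gene above the median on all arrays used with other medians and without each 1-day array, and there were 0 when every probe set of a gene had to be above it. Limma called 0 probe sets in every fit of 7 days against 1 day. Probe sets at least 2-fold outside both 1-day arrays numbered 2171, of which 389 were higher and 1782 lower. The number was 1340 with a pseudocount of 64, 59 with a filter at the median and 7 with one at the 75th percentile, which test fewer probe sets, and 6672 to 18398 against 1 array of the 1-day pair. Among the 11 adrenoceptor probe sets 1 was so placed, 2 with a pseudocount of 1, 0 with either filter, and 3 and 11 were at least 2-fold from array b alone and array a alone. The split was 847 and 1848 with quantile normalization and 981 and 1585 with median centring, which moved the median difference of all gene probe sets from -0.20 to 0.02 and 0.32. With the genes of the 6 pathway lists pooled, the median difference over genes was 0.02. It was -0.14 with a gene's probe sets averaged, 0.53 with median centring and -0.06 to 0.04 with 1 array of the 1-day pair. The causes of these shifts were not tested. No paired analysis was possible because the groups share only the letter a.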
